A study of Mus musculus with 2 samples.

Results

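The TNF family death receptors *Fas*, *Tnfrsf10b*, *Tnfrsf1a*, *Tnfrsf12a* and *Tnfrsf21*, the adaptors *Fadd*, *Tradd* and *Ripk1*, and the *Casp8*-*Cflar* node were examined in mouse lung cancer cells before and after *Runx3* restoration. The 10 genes were chosen by symbol, with earlier results of these data known. All 10 were found among the 23183 genes with an FPKM value (fragments scaled to the length of the transcript and to the depth of the library). The KPR- cells are an immortalized line obtained from lung cancers of KPR L/F-TAM(-) mice, whose alleles are p53 flox/flox, K-Ras LSL-G12D/+, FlpERT2, Rosa26R-Tomato and Runx3 flox/FSF. Adenoviral Cre driven by the CMV promoter, which is not restricted to one lung cell type, had activated K-Ras and removed p53 and the floxed *Runx3* allele, so that by design p53 is deleted in both libraries. 4-OHT, the metabolite through which tamoxifen acts, activates the Flp recombinase, which takes the Frt-Stop-Frt cassette out of the remaining *Runx3* allele and gives KPRrestored cells. The sample records place KPR- at 0 h with the genotype RUNX3 -/- and KPRrestored at 16 h with the genotype RUNX3 -/+, and list 1 μM 4-OHT for both. Each condition was sequenced as 1 library, so no difference has a replicate check, no p-value was computed, and the effect of *Runx3* cannot be told apart from that of 4-OHT or of hours in culture.

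Death receptors are cell surface proteins that bind ligands of the TNF family. Fas and the TRAIL receptor Tnfrsf10b recruit Fadd, which gathers Casp8 into a death-inducing complex (the DISC), where Casp8 cleaves itself and starts the caspase cascade. Tnfrsf1a first recruits Tradd and Ripk1 into a membrane complex (complex I) that signals to NF-kappaB, and a second complex with Fadd and Casp8 can follow. Cflar, which encodes c-FLIP, resembles Casp8 but lacks a working catalytic site and restrains it. Casp8 also cleaves Ripk1 and Ripk3 and so holds back necroptosis, a lytic death carried out by Mlkl.

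Among the 10 genes, *Casp8* alone passed the threshold used here, a log2 difference of 0.5 either way, which 13.8% of all genes passed on the higher side and 12.9% on the lower side. Its level was 35.6 FPKM in KPR- and 1.49-fold higher in KPRrestored, at 53.1 FPKM. The level of its antagonist *Cflar* was nearly equal in both, at 17.3 FPKM in KPR- and 17.2 FPKM in KPRrestored. The receptors and adaptors differed by less, from -0.45 for *Fas* to 0.23 for *Tnfrsf1a* on the log2 scale. All differences are log2(FPKM + 0.005) in KPRrestored minus KPR-, a scale on which 0.5 is a 1.41-fold difference.

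The depth behind these values was read from the steps that whole fragments leave in low FPKM values. It came to about 21700000 fragments for KPR- and 22400000 for KPRrestored, and the 95% intervals given with the differences are exact Clopper-Pearson limits on estimated fragments that cover counting error only. *Runx3* had 0.348 FPKM in KPR- and 0.349 FPKM in KPRrestored, from about 28 and 29 fragments. Its log2 difference was 0.0074 with an interval of -0.79 to 0.81, so a difference was not detectable at this depth. A value per gene also does not separate transcripts of the restored allele, so *Runx3* does not check the labels. Every direction is therefore that of the library labelled KPRrestored against the library labelled KPR-. Of 8 lung epithelial markers, 5 reached a mean of 1 FPKM, among them *Epcam*, *Cdh1* and *Krt8*, while *Sftpc* and *Sftpb* were listed at 0 and *Nkx2-1* had under 0.05 FPKM in both libraries. Of the 7 immune markers reported, 4 (*Adgre1*, *Cd3e*, *Ms4a1* and *Nkg7*) were listed at 0 in both libraries, *Ptprc* had at most 1 fragment, and the list summed to 5.77 FPKM in KPR- and 7.98 FPKM in KPRrestored. That sum came from *Cd68*, which went from 3.08 FPKM in KPR- to 6.78 FPKM in KPRrestored (log2 difference 1.13), and *Csf1r*, which went from 2.68 to 1.19 FPKM (-1.17). The 4 endothelial markers summed to 1.16 FPKM and 2.22 FPKM, mostly *Kdr*, with a log2 difference of 0.89. *Cdh5* was listed at 0 in KPR- and had 0.141 FPKM in KPRrestored, from about 12 fragments. *Pecam1* had about 4 fragments in KPR- and 2 in KPRrestored, and *Tek* was listed at 0 in both. The 6 mesenchymal markers summed to 1816 FPKM and 1488 FPKM, nearly all of it *Vim* (-0.28). The other expressed mesenchymal markers were also lower in KPRrestored, *Col1a1* at 12.2 FPKM in KPR- and 4.21 FPKM in KPRrestored (-1.53) and *Cdh2* at 27.1 and 19.8 FPKM (-0.46). The part of these markers in the results was not tested. In bulk RNA, fewer cells of a type and less RNA per cell cannot be told apart.

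*Casp8* (ENSMUSG00000026029.14) lies on chromosome 1 of GRCm38 from 58795374 to 58847503, on the plus strand. GENCODE M21 gives it 4 coding transcripts from 2 groups of start sites, with 7128 bases between the first start at 58795374 and the first start of the second group at 58802502. The 250 bases before the second start are shown, because *Casp8* is the member with the largest difference and the study is about a RUNX factor. They lie at chr1:58802252-58802501 (GRCm38.p6, plus strand, sequence from RefSeq), in an intron of the longer transcripts and with 0 exonic bases. Capitals mark the letters TGTGGT, a core of the RUNX consensus, at positions -164 to -159 counted from the start.

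Casp8 upstream: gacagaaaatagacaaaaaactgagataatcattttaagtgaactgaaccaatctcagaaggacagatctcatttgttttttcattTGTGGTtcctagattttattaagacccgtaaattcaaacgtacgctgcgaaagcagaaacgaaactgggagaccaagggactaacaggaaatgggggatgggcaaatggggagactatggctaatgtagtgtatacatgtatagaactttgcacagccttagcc

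RefSeq windows of this kind were found for 8 of the 10 genes, 9 windows in all, and were searched on both strands. TGTGGT was in 1 of the 9 windows, that of *Casp8*, and in 14.0% of all 32851 windows of the same length. The window of *Casp8* was the one before its second start, and the bases before its first start were not searched. The other RUNX letters TGCGGT, the NF-kappaB letters GGG and TTTCC with any 2 bases between them and the C/EBP-ATF letters TGATGNAA were in 0 of the 9 windows, against 5.1%, 1.41% and 3.45% of all windows. A match of letters is a description of these windows, and binding was not measured.

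The values of *Casp8* rested on about 1839 fragments in KPR- and 2818 in KPRrestored. The log2 difference was 0.58, with a counting interval of 0.49 to 0.66, so the interval lay above 0 and its lower end fell just under the threshold of 0.5. With the shortest coding transcript of 1628 bases in place of the longest of 2585 bases, about 1100 and 1681 fragments stood behind it and the interval ran from 0.47 to 0.69. The difference stood at percentile 90.5 among the 11231 genes whose mean FPKM reached 1, called expressed genes from here on, of which 12.1% were higher by 0.5 or more and 9.29% lower. With 1 of 10 members higher, the share on the higher side was near that of expressed genes, and 0 of 10 were lower.

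*Cflar* (ENSMUSG00000026031.15) is the neighbour of *Casp8* on the same strand of chromosome 1, from 58711508 to 58758884, and ends 36.5 kb before *Casp8* begins. Its log2 difference was -0.0042 with a counting interval of -0.086 to 0.078, from about 2390 and 2456 fragments. The ratio of *Casp8* to *Cflar* FPKM went from 2.06 in KPR- to 3.08 in KPRrestored, a log2 change of 0.58 with an exact conditional interval of 0.46 to 0.70. The value per gene sums the transcripts of long and short c-FLIP, which were not separated. *Casp8* also gained on *Fadd*, the adaptor that recruits it, with a ratio of 4.98 in KPR- and 7.91 in KPRrestored. Against *Ripk1*, a substrate of Casp8, the ratio was 2.05 and 2.68.

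**Figure D1:**
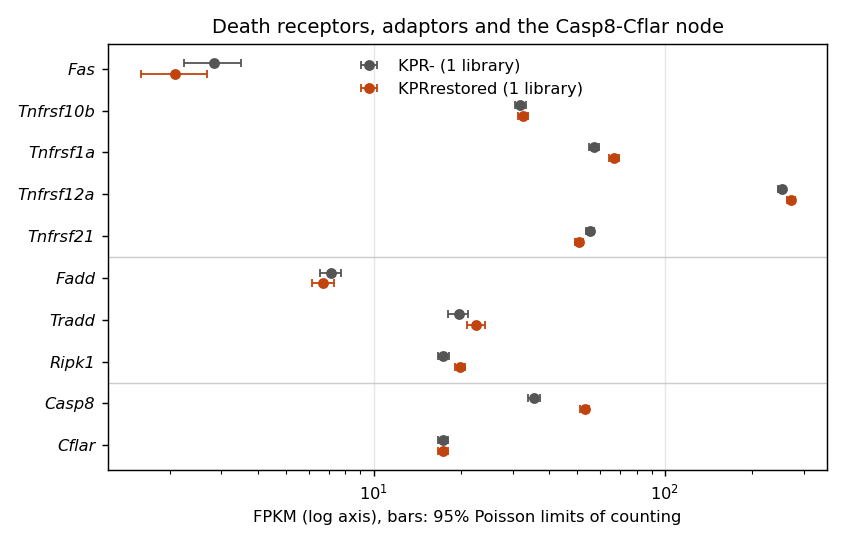
FPKM of the 10 genes (log axis) in the KPR- library (grey) and the KPRrestored library (orange), 1 library each, with bars for exact 95% Poisson limits of the estimated fragments, which cover counting error only. *Tnfrsf12a* stands highest and *Fas* lowest in both libraries, and *Casp8* moves from 35.6 to 53.1 FPKM.

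The 5 receptors were expressed over a range from *Tnfrsf12a* to *Fas*. *Tnfrsf12a*, the TWEAK receptor Fn14, which has no death domain and signals through TRAF proteins, had 252 FPKM in KPR- and 271 FPKM in KPRrestored. It alone made up 63.1% of the summed FPKM of the 5 receptors in KPR- and 64.1% in KPRrestored, and its mean stood at percentile 97.4 of the expressed genes. Its log2 difference was 0.11 with a counting interval of 0.048 to 0.17, from about 4263 and 4683 fragments.

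*Tnfrsf1a*, the main receptor for TNF, had 57.1 FPKM in KPR- and 66.9 FPKM in KPRrestored. Its log2 difference of 0.23 was the largest among the receptors on the higher side, with an interval of 0.15 to 0.31. *Tnfrsf21*, or death receptor 6, which carries a death domain and is best known from neurons and lymphocytes, had 55.5 FPKM in KPR- and 50.6 FPKM in KPRrestored. Its log2 difference was -0.13, with an interval of -0.20 to -0.069. *Tnfrsf1a* and *Tnfrsf21* had overlapping Poisson limits in KPR- and separate ones in KPRrestored.

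*Tnfrsf10b*, the only mouse TRAIL receptor with a death domain and a known p53 target, had 31.9 FPKM in KPR- and 32.6 FPKM in KPRrestored. The log2 difference was 0.032 with a counting interval of -0.056 to 0.12, which lay well inside the threshold but covers counting error only. This difference turned to -0.0027 when both libraries were scaled to the same upper quartile. *Fas*, also a known p53 target, was the least abundant member, with 2.82 FPKM in KPR- and 2.07 FPKM in KPRrestored. Only about 78 and 59 fragments stood behind *Fas*, so its log2 difference of -0.45 came with an interval of -0.95 to 0.069. A difference of *Fas* was not detectable at this depth, and one past the threshold on the lower side lies within its interval.

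**Figure D2:**
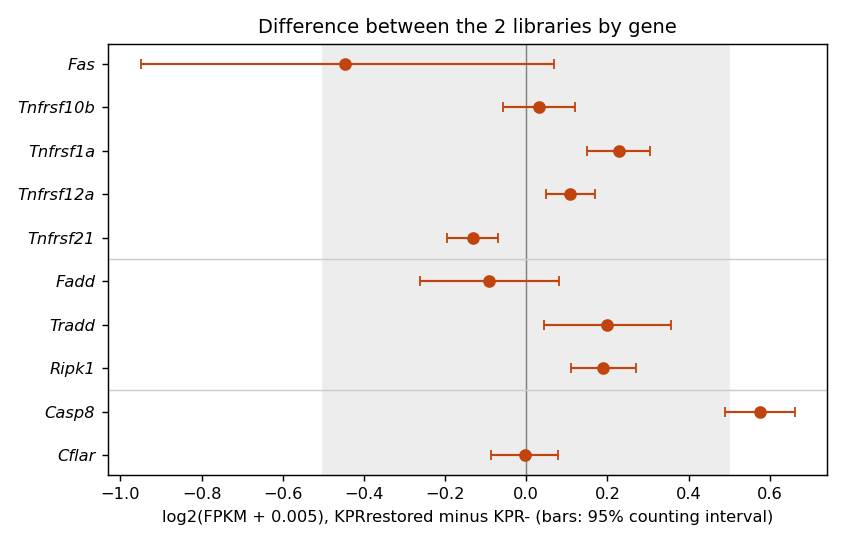
Differences of log2(FPKM + 0.005), KPRrestored minus KPR-, for the 10 genes in the order receptors, adaptors and *Casp8*-*Cflar*, with 95% counting intervals as bars and the range within 0.5 of 0 shaded. *Casp8* at 0.58 is the only point outside the shading, and *Fas* has the widest interval.

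Among the adaptors, *Fadd*, which links Fas and Tnfrsf10b to Casp8, had the lowest level, with 7.14 FPKM in KPR- and 6.70 FPKM in KPRrestored. Its log2 difference was -0.091, with an interval of -0.26 to 0.080 from about 573 and 554 fragments. *Tradd*, the adaptor of Tnfrsf1a, had 19.6 FPKM in KPR- and 22.4 FPKM in KPRrestored, a log2 difference of 0.20 with an interval of 0.045 to 0.36. *Ripk1*, the kinase with a death domain that serves both survival and death signalling, had 17.4 FPKM in KPR- and 19.8 FPKM in KPRrestored. Its log2 difference was 0.19, with an interval of 0.11 to 0.27.

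The first exons of *Ripk1* share 241 bases with those of *Serpinb6a* on the opposite strand, which had 381 FPKM in KPR- and 508 FPKM in KPRrestored. The kit marks strand, but the strand setting of the mapping is not given in the sources used here, and the part of *Serpinb6a* reads in the *Ripk1* value was not tested. *Fadd* overlaps an antisense gene, Faddos, for which no value was used here. Other annotated genes without a value overlap *Casp8* (Gm37760, on the same strand), *Ripk1* (the pseudogenes Gm17083 and Gm17084) and *Fas* (Gm27818).

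In the KPR- library the order of levels was *Tnfrsf12a*, *Tnfrsf1a*, *Tnfrsf21*, *Casp8*, *Tnfrsf10b*, *Tradd*, *Ripk1*, *Cflar*, *Fadd* and *Fas*. In KPRrestored the order was the same except that *Casp8* moved ahead of *Tnfrsf21*, with overlapping Poisson limits between the pair. *Tradd* and *Ripk1*, and *Ripk1* and *Cflar*, overlapped in KPR- and were apart in KPRrestored. The FPKM of the 10 genes summed to 496 in KPR- and 543 in KPRrestored.

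The counting interval lay above 0 for 5 of the 10 genes (*Casp8*, *Tnfrsf1a*, *Tnfrsf12a*, *Tradd* and *Ripk1*), below 0 for *Tnfrsf21*, and covered 0 for 4. Among the 11139 expressed genes with at least 10 estimated fragments, 34.3% had an interval above 0 and 33.0% had one below 0. The median log2 difference of the 10 members was 0.070, beside 0.0086 over the expressed genes, whose quartiles were -0.23 and 0.27. Of the 10 genes, 8 lay within 0.25 of 0, as did 50.1% of the expressed genes. All 10 counted as expressed.

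**Figure D3:**
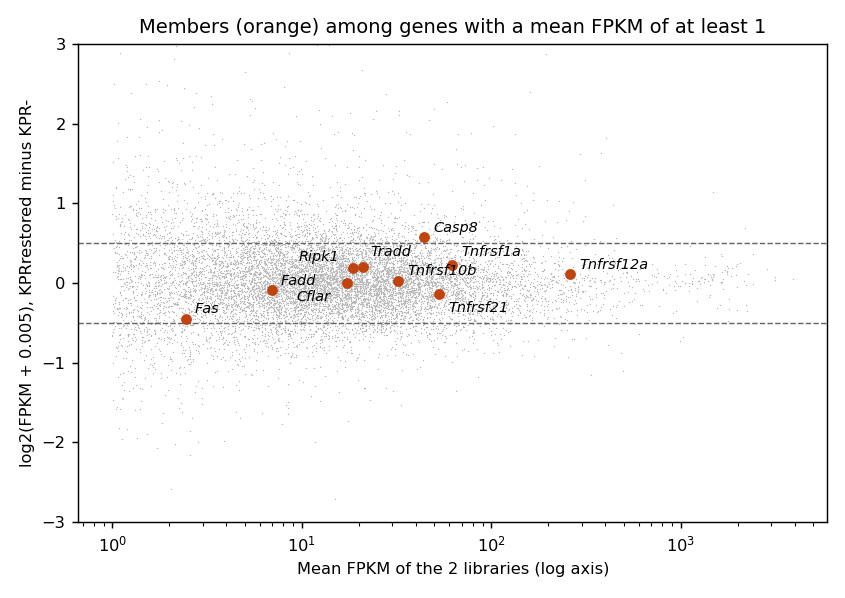
Each grey point is an expressed gene (mean FPKM of 1 or more), plotted by that mean (log axis) and by its difference of log2(FPKM + 0.005), KPRrestored minus KPR-; the 10 members are in orange and the dashed lines mark 0.5 and -0.5. *Casp8* lies just above the upper line and the other 9 members lie between the lines; 31 genes with differences past 3 either way are outside the axis.

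The other genes of the pathway were described through 7 lists with 79 genes reported, of which 63 were expressed. Of these 63 genes, 10 (15.9%) were higher and 3 (4.76%) were lower by 0.5 or more, beside 12.1% and 9.29% of all expressed genes. Their median log2 difference was 0.13.

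Most TNF family ligands on the list, which was not limited to ligands of the 5 receptors, were scarce in both libraries. *Tnfsf12*, which encodes TWEAK, the ligand of Tnfrsf12a, was the only expressed one of 8, at 9.67 FPKM in KPR- and 9.20 FPKM in KPRrestored. *Fasl* and *Tnfsf14* were listed at 0 in both libraries, where a count of 0 allows up to 3 fragments, or 0.0798 FPKM of *Fasl* in KPR- and 0.0777 FPKM in KPRrestored. *Tnfsf10*, which encodes TRAIL, had about 1 and 2 fragments. *Tnf* had 0.380 FPKM in KPR- and 0.246 FPKM in KPRrestored, from about 12 and 8 fragments, and a difference was not detectable at this depth. *Ltb*, a subunit of the lymphotoxin heterotrimer, had 0.721 FPKM in KPR- and 0.151 FPKM in KPRrestored, a log2 difference of -2.22 from about 15 and 3 fragments, with an interval of -4.78 to -0.53. *Lta* and *Tnfsf15* were also under 1 FPKM in both libraries.

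Of 17 other TNF receptors, 9 were expressed, and 3 of these were lower and 0 higher by 0.5 or more, with a median log2 difference of -0.077. *Tnfrsf1b*, the second TNF receptor, which has no death domain, had 13.9 FPKM in KPR- and 8.92 FPKM in KPRrestored, a log2 difference of -0.64 with an interval of -0.78 to -0.51. *Ngfr*, the p75 neurotrophin receptor, which has a death domain, had 3.05 FPKM in KPR- and 1.69 FPKM in KPRrestored, a log2 difference of -0.84 with an interval of -1.17 to -0.51. *Relt* was the other lower gene, at -0.54, and was within the threshold with a pseudocount of 1. *Tnfrsf26*, a mouse receptor of the same family, had the largest difference on the higher side, from 24.9 to 33.6 FPKM, a log2 difference of 0.43, followed in the order of log2(FPKM + 1) by *Ltbr*, the lymphotoxin beta receptor, at 0.27. The TRAIL decoy receptors *Tnfrsf22* and *Tnfrsf23* had log2 differences of -0.077 and -0.0063. *Tnfrsf22*, *Tnfrsf23* and *Tnfrsf26* are close paralogs, so reads could be split between them.

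In complex I, 3 of 18 genes were higher and 0 lower by 0.5 or more, with a median of 0.14. *Traf1* was higher by 0.70 on the log2 scale, at 5.12 FPKM in KPR- and 8.29 FPKM in KPRrestored, *Sharpin*, a subunit of the linear ubiquitin ligase, by 0.58, and *Traf2*, which brings the ubiquitin ligases Birc2 and Birc3 to Tnfrsf1a, by 0.52. *Traf2* was under the threshold with a pseudocount of 1 and when the libraries were scaled to the same upper quartile. The largest differences on the lower side were those of *Traf3*, at -0.33, and *Traf5*, at -0.14, both within the threshold. The next list held 12 regulators of Ripk1, enzymes and adaptors that trim ubiquitin chains or phosphorylate it. Of these, 2 were higher and 0 lower, with a median of 0.21. Whether each of them restrains or promotes death through Ripk1 was not tested, so a higher level is not read as more restraint. *Spata2*, which ties the deubiquitinase Cyld to complex I, went from 8.19 to 12.3 FPKM and *Optn*, a ubiquitin-binding adaptor, from 19.3 to 28.9 FPKM, log2 differences of 0.59 each. *Cyld* itself, at -0.18, and *Tbk1*, at -0.12, had the largest differences on the lower side.

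Of the 4 necroptosis genes 3 were expressed, and all 3 were higher by 0.5 or more, as were 12.1% of all expressed genes. Their median log2 difference was 0.74. The list is short and was chosen with earlier results of these data known. *Ripk3*, the kinase that phosphorylates Mlkl, had 1.85 FPKM in KPR- and 3.57 FPKM in KPRrestored, from about 71 and 140 fragments, a log2 difference of 0.94 with an interval of 0.52 to 1.37. *Mlkl*, which permeabilizes the membrane, had 19.7 FPKM in KPR- and 30.5 FPKM in KPRrestored, a log2 difference of 0.63 with an interval of 0.50 to 0.76. *Ticam1*, the adaptor that couples Toll-like receptors to Ripk1 and Ripk3, had 3.26 FPKM in KPR- and 5.44 FPKM in KPRrestored, a log2 difference of 0.74. *Zbp1*, a nucleic acid sensor, had about 3 fragments in KPR- and was listed at 0 in KPRrestored, so no fold is given.

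Among 10 modifiers of the DISC, 1 was higher and 0 lower, with a median of 0.098. *Pea15a*, a death effector domain protein that binds Fadd and Casp8, had 50.6 FPKM in KPR- and 79.8 FPKM in KPRrestored, a log2 difference of 0.66 with an interval of 0.59 to 0.73. *Faim* had a log2 difference of 0.32, *Bcap31*, an ER protein cleaved by Casp8, of -0.32 and *Ezr* of -0.012. Of the 10 genes reported downstream of Casp8, 1 was higher and 0 lower, with a median of 0.15. *Bid*, which Casp8 cleaves to engage mitochondria, had 17.0 FPKM in KPR- and 24.1 FPKM in KPRrestored, a log2 difference of 0.504 that barely passed the threshold and fell under it with other scalings. *Diablo*, a mitochondrial antagonist of the caspase inhibitor Xiap, had a log2 difference of 0.46. The largest differences on the lower side were those of *Xiap* itself, at -0.36, and *Htra2*, a mitochondrial protease, at -0.15.

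**Figure D4:**
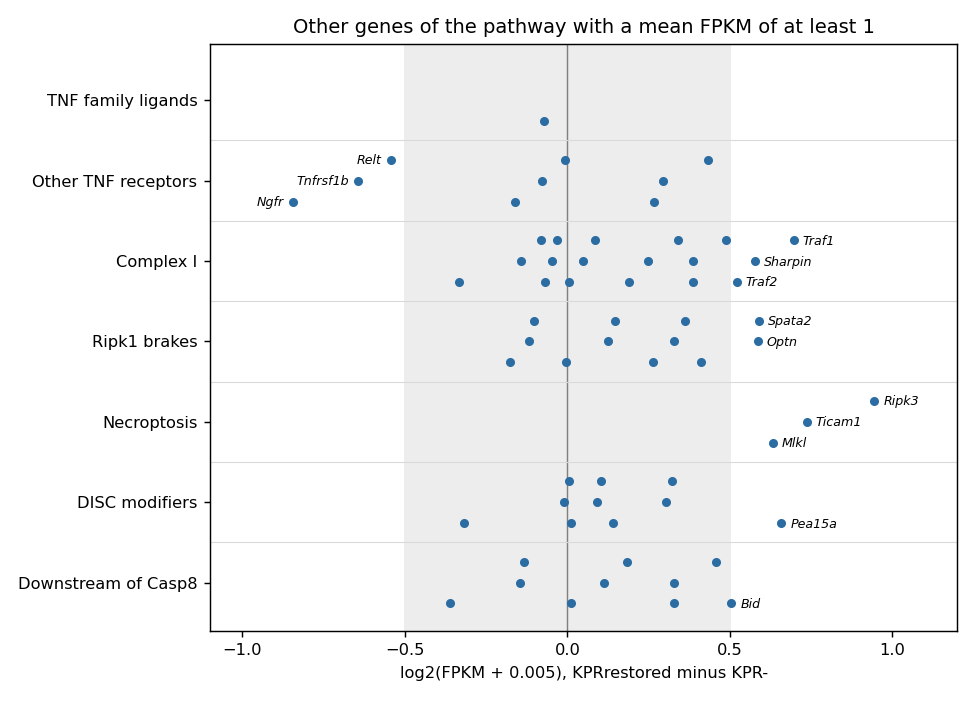
Each point is an expressed gene of one of the 7 lists, placed by its difference of log2(FPKM + 0.005), KPRrestored minus KPR-; height within a row only separates the points, the range within 0.5 of 0 is shaded, and genes outside it are named. The 3 necroptosis genes lie on the higher side, and *Ngfr*, *Tnfrsf1b* and *Relt* on the lower side.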

How the data were processed

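Poly(A) RNA of 2 conditions, KPR- and KPRrestored, was sequenced as 1 paired-end library each. The authors trimmed the reads, mapped them using TopHat (build mm10 in the submitters' processing notes) and deposited FPKM values per gene estimated using Cufflinks. The paper also names a geometric normalization of the read counts using EdgeR. Whether the deposited values carry that step is not clear, and if so the estimated depths would be scaled ones. Versions and annotation are not given in the sources used here.

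Differences were computed as log2(FPKM + 0.005) with a threshold of 0.5. This understates the ratio of genes whose FPKM is near the pseudocount. A gene listed at 0 in only KPR- or only KPRrestored can still take a large difference from a few fragments. The counts over all genes include such genes. Fragments were estimated from the steps of low FPKM values over 1674 (KPR-) and 1623 (KPRrestored) genes of a single transcript length, of which 78.4% and 79.3% lay within 0.1 of a whole number, against 20% by chance. The longest GENCODE M21 transcript with a RefSeq counterpart gave the length, so fragments are upper estimates for genes with shorter transcripts. Of 23183 symbols, 22148 matched GENCODE directly and 665 by synonym. Python 3.11.15 and scipy 1.17.1 were used. The steps were tried on simulated Poisson counts with a single length per gene, which cannot test genes with several transcripts.

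Groups came from the sample records. With 1 library per group there was no test. The members and lists were chosen with earlier results of these data known. Named genes were the 10 members and, in each other list, the 2 genes with the largest increase and the 2 with the largest decrease of log2(FPKM + 1), with all ligands and necroptosis genes given; *Relt*, *Tnfrsf22*, *Tnfrsf23*, *Traf2*, the overlapping genes and the neighbours of *Casp8* were added after their values were seen. Some genes of the lists are not reported here and are left out of the lists' counts, sums and medians. Alternatives were other pseudocounts, scalings, thresholds, filters and transcript lengths.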

Additional observations from a re-analysis of the deposited data

How the results depend on the processing

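*Casp8* stayed the only member past the threshold of 0.5 with pseudocounts of 1 and 0.1 and with the 3 other scalings (to the same FPKM total, to the same upper quartile, or centred on the median gene). With a threshold of 1, 0 members were higher, and with a threshold of 0.25, 1 member (*Fas*) was lower. The median of the 10 members ran from 0.036 (same upper quartile) to 0.070 over these settings. Over all genes, 3193 were higher and 3002 lower; the counts were 1141 and 836 with a pseudocount of 1, 1625 and 1527 with a threshold of 1, 1358 and 1043 with a mean FPKM of at least 1, and 872 and 641 with a mean FPKM of at least 5. By construction, a larger pseudocount shrinks the differences of low genes, the filters remove low genes, and a higher threshold takes in fewer genes at any level. Downstream of Casp8, the count of higher genes (*Bid*) went from 1 to 0 with a pseudocount of 1 and with each of the 3 scalings. In complex I it went from 3 to 2 (without *Traf2*) with a pseudocount of 1 and with the same upper quartile, and the count of lower genes among the other TNF receptors from 3 to 2 (without *Relt*) with a pseudocount of 1. The counts of the other lists did not move with these pseudocounts and scalings. No member's counting interval moved onto or off 0 with the shortest coding transcript. No paired analysis was possible because each group has 1 library, and for the same reason no library could be left out. Depth limits *Fas*, with about 78 and 59 fragments, *Ltb*, with about 15 and 3, and the genes at a few fragments or 0. No fold is given for genes under 10 estimated fragments in both libraries together.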

Other observations

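The genes around *Cflar* and *Casp8* on chromosome 1 were examined after the values of both had been seen. Within 250 kb on either side, 11 genes had values, 8 of them with a mean FPKM of at least 1, and of these *Casp8* was the only one past 0.5 either way. *Nif3l1* had a log2 difference of 0.40 (interval 0.26 to 0.55), at 16.7 FPKM in KPR- and 22.1 FPKM in KPRrestored. *Trak2*, the next expressed gene after *Casp8*, had 10.4 FPKM in KPR- and 8.43 FPKM in KPRrestored, a log2 difference of -0.30 (interval -0.42 to -0.19), and *Fam126b* had -0.33. *Orc2*, a subunit of the origin recognition complex, had -0.18, *Stradb* 0.13 and *Ndufb3*, a subunit of respiratory complex I, 0.014. The neighbours thus lay on both sides of 0.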
